A study of Homo sapiens with 5 samples.

Results

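Of the 10 mRNAs examined here, 9 were among the 6309 genes with a measured change in translation efficiency in decitabine-treated HL-60 cells. They encode the translation elongation factors eEF1A (EEF1A1), eEF1G (EEF1G), eEF1B2 (EEF1B2) and eEF2 (EEF2), and 5 other proteins: TPT1, VIM, NAP1L1, PABPC1 and HNRNPA1. They were chosen by name, as mRNAs known to begin with a terminal oligopyrimidine (TOP) motif that encode neither a ribosomal protein nor an initiation factor. Their measured values were known when they were chosen, so the values are given as a description and the members were not tested as a group. The p-values of single genes, as deposited or recomputed after a shift of all coefficients, belong to that description. EEF1D, the tenth gene sought, was not analysed here.

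HL-60 is an established human promyelocytic leukaemia line, here of the WT genotype. Cells received decitabine, a deoxycytidine analogue that enters DNA and traps DNA methyltransferases, at a dose of 100 nM given at 0 hours and repeated at 24 and at 48 hours, or the solvent DMSO, and both groups were lysed at 72 hours. There were, by the labels, 2 libraries of total RNA for each treatment and 1 library that pooled the ribosome-protected fragments of samples with barcoded linkers. Translation efficiency compares how much of an mRNA is protected by ribosomes with how much of it is present in all. The authors' deposited table gave 1 coefficient per gene for decitabine against DMSO, with no value per library, so neither values per sample nor the depth of the libraries can be shown. The labels say that wells were seeded in duplicate without naming separate cultures, so the p-values can reflect no more than the spread among these wells, which may be technical. All 12 promyelocyte markers looked up, among them MPO and ELANE, were among the genes analysed, as were 2 of 14 lymphoid markers (CD4 and NKG7) and 0 of 15 erythroid and megakaryocyte markers.

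A TOP mRNA begins with a cytosine directly after the cap, followed by an unbroken run of pyrimidines. Ribosomal proteins, elongation factors and a few other abundant proteins share this start, and their translation is known to rise and fall together with the activity of the kinase complex mTORC1. LARP1 is known to bind the cap and the run when mTORC1 is off and to hold these mRNAs away from ribosomes. In elongation, eEF1A brings aminoacyl-tRNA to the ribosome, eEF1B2 and eEF1G belong to the complex that reloads eEF1A with GTP, and eEF2 moves the ribosome along by a codon.

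The letters at the annotated start are shown first, because the start is the feature by which these mRNAs are grouped. Each window holds 10 bases before an annotated start and the 20 bases from it, 5′ to 3′ on the gene's strand, from RefSeq on GRCh38.p14. Capitals mark a run that begins with C at the annotated start and holds only C and T, where there is a run of 5 bases or more.
EEF1A1, chr6:73521013-73521042, minus strand: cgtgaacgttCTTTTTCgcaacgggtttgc
EEF2, chr19:3985444-3985473, minus strand: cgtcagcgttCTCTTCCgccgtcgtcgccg
EEF1G, chr11:62573872-62573901, minus strand: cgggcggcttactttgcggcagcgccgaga
EEF1B2, chr2:206159885-206159914, plus strand: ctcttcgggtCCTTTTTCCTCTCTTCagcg
TPT1, chr13:45341164-45341193, minus strand: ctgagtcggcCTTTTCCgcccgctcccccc
NAP1L1, chr12:76084666-76084695, minus strand: gctcttgggtCTTTTTTagcgccatctgct
VIM, chr10:17228231-17228260, plus strand: atcgtgatctgggaggcccacgtatggcgc

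Such a run stood at an annotated start of 5 of the 7 measured members with a sequence: EEF1A1, EEF2, TPT1 and NAP1L1 with 7 bases each, and EEF1B2 with 16. A gene with several annotated starts was counted if any of them held the run, here as for all genes. For EEF1B2 the start with the run lies inside the gene, not at its first base. The same start was found in 7.76% of the 5285 measured genes with a RefSeq start and in 5.14% of all 27303 genes with one. The members were chosen as mRNAs known to begin in this way, so nothing is read from that difference. A start placed exactly at the annotated base was looked at after the sequences were seen. With the run allowed to begin up to 10 bases to either side, again 5 of 7 members held it, but so did 40.9% of the measured genes, so the wider window says little. EEF1G opened with acttt, a run of 4 pyrimidines behind an A, and VIM with gggagg. The annotated start need not be the one used in HL-60 cells, and no match means only that these letters are not in that window. EEF1B2 has a further annotated start, at chr2:206159599-206159628 on the plus strand (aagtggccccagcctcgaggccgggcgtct), without a run.

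Translation efficiency of EEF1A1, EEF2 and VIM was lower with decitabine, and the other 6 measured members were not called. A coefficient below 0 means lower efficiency with drug. In the authors' deposited table, 8 of the 9 coefficients were below 0, with a median of -0.19, while the median over all 6309 genes was 0.09 and 35.0% of those were below 0. At an adjusted p below 0.05 there, 3 members were called, all lower: EEF1A1, EEF2 and VIM. Over all genes 0.808% were called, 0.174% as lower and 0.634% as higher. Nothing is read from the members' count against that background, because the same values were known when they were chosen.

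**Figure D1:**
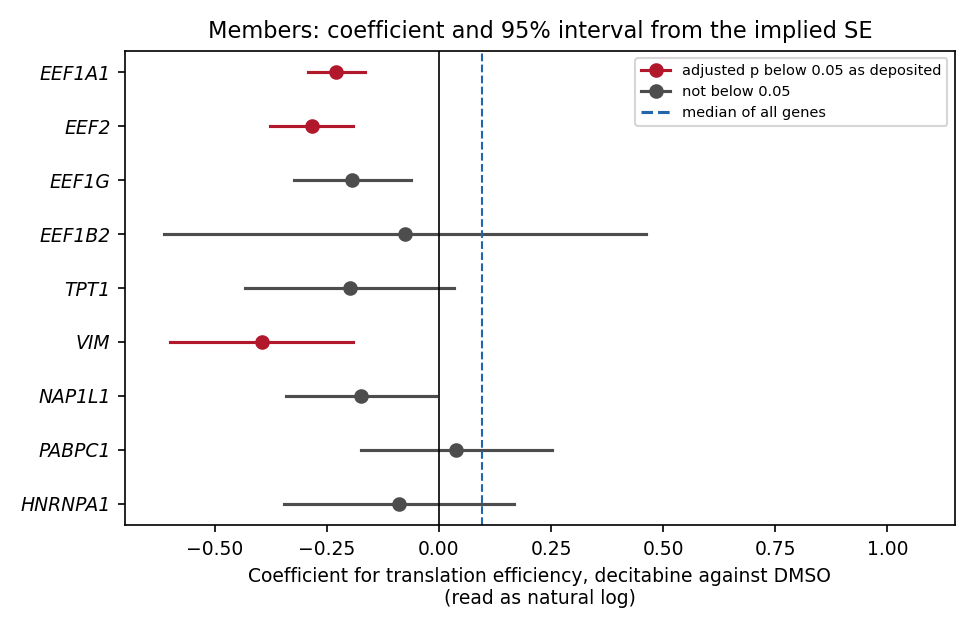
Coefficient for translation efficiency (decitabine against DMSO, read as natural log, horizontal axis) of the 9 measured members, each point with its 95% interval from the implied standard error. The intervals of 5 members lie wholly below 0, and all 9 points lie left of the dashed median of all genes at 0.09.

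EEF1A1 was the best measured of the group. Its coefficient was -0.23 ± 0.03 (SE implied by the authors' p-value, as for every SE below) in the authors' deposited table. Read as a natural log, which the table does not state, this is 0.795 times the DMSO level (95% interval 0.746 to 0.847), and read as log2 it would be 0.853 times. Its adjusted p was given as 2.55e-09 in the authors' deposited table. Only 2 of the 6309 genes had a smaller implied SE, a sign of precision in the authors' fit. EEF1A1 has 50 annotated pseudogenes in RefSeq by name, and no source used here says how the authors assigned reads shared with them, so its value is uncertain to that extent.

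EEF2 stood somewhat lower. Its coefficient was -0.28 ± 0.05 in the authors' deposited table, with an adjusted p of 1.88e-06, which as a natural log is 0.753 times the DMSO level (0.687 to 0.826). No pseudogene of EEF2 is annotated under its name. The intervals of EEF2 and EEF1A1 overlap, so their order is not resolved.

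The remaining subunits of the eEF1 complex were measured less well. EEF1G had -0.19 ± 0.07 in the authors' deposited table, or 0.824 times the DMSO level (0.723 to 0.939). It was not called, with an adjusted p of 0.163 in the authors' deposited table. After the median of all genes was subtracted from every coefficient of the authors' deposited table it passed as lower (adjusted p = 0.00527, Benjamini-Hochberg over all 6309 genes). EEF1B2 had -0.08 ± 0.27, and its interval for the fold, 0.541 to 1.59, holds both the values of EEF1A1 and a rise of the same size. All 3 measured subunits had coefficients below 0, and the direction of EEF1B2 is not resolved at this precision.

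Among the members outside elongation, VIM had the lowest coefficient. VIM encodes vimentin, the intermediate filament protein of mesenchymal and blood cells. Its coefficient was -0.40 ± 0.10 in the authors' deposited table (adjusted p = 0.0276), or 0.673 times the DMSO level (0.549 to 0.826). Its interval overlaps those of EEF1A1 and EEF2. VIM was also the called member whose annotated start holds no run in the sequences above. Its gene overlaps VIM-AS1, a long non-coding RNA, and no source used here says whether the authors counted reads by strand.

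TPT1, NAP1L1 and HNRNPA1 had values below 0 that were not called. TPT1, encoding the abundant translationally controlled tumour protein, had -0.20 ± 0.12 in the authors' deposited table (adjusted p = 0.58). For NAP1L1, a chaperone for histones H2A and H2B, the authors' deposited table gave -0.17 ± 0.09 (adjusted p = 0.454). Both coefficients lie close to that of EEF1G, with wider intervals: -0.43 to 0.03 for TPT1 and -0.34 to -0.01 for NAP1L1. For HNRNPA1, a splicing regulator that shuttles between nucleus and cytoplasm, the authors' deposited table gave -0.09 ± 0.13 (adjusted p = 0.88). RefSeq annotates 75 pseudogenes named after HNRNPA1, 14 after TPT1, 13 after PABPC1, 8 each after EEF1G and EEF1B2 and 3 after NAP1L1, and the values of these genes carry the same uncertainty as that of EEF1A1.

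PABPC1, the cytoplasmic poly(A)-binding protein that bridges the tail and the cap of mRNAs, was the member with a coefficient above 0. Its value was 0.04 ± 0.11 in the authors' deposited table, with an adjusted p of 0.945. It lay below the median of all genes and turned to -0.06 once that median was subtracted. Its 95% interval as deposited, -0.173 to 0.251, overlaps that of EEF1A1, -0.293 to -0.166, but not that of EEF2, -0.376 to -0.191. These differences were not tested.

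In order from the lowest, the coefficients were those of VIM, EEF2, EEF1A1, TPT1, EEF1G, NAP1L1, HNRNPA1, EEF1B2 and PABPC1, and each gene's interval overlaps that of its neighbours in this order. The intervals of 6 members lay wholly below the median of all genes, and 3 (EEF1B2, PABPC1 and HNRNPA1) spanned it. With the median subtracted, 4 members were called lower, EEF1G in addition to EEF1A1, EEF2 and VIM, against 0.507% of all genes called lower and 0.0793% called higher in that setting. Nothing is read from this count either, because the values were known when the members were chosen. The 6 members not called as deposited had a median of -0.13.

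**Figure D2:**
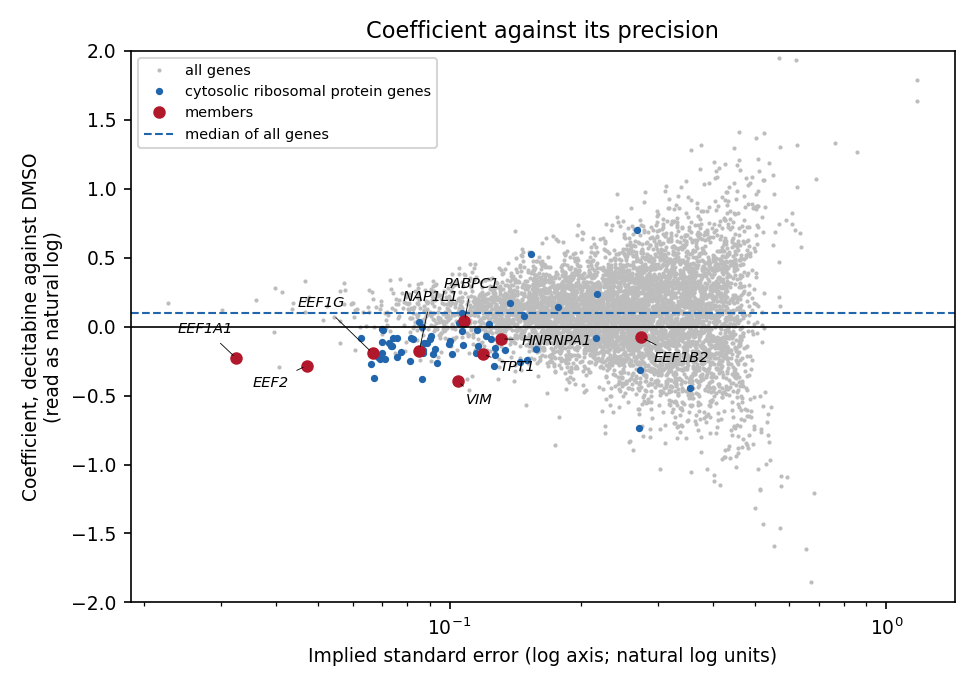
Coefficient (decitabine against DMSO, read as natural log) against implied standard error (log axis) for all genes in grey, the 63 ribosomal protein genes in blue and the 9 members in red; 2 genes beyond ±2 are not drawn. EEF1A1 and EEF2 lie at the left edge, where standard errors are small, and EEF1B2 is the member farthest to the right.

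EEF1A1 and EEF2 stood out by the precision of their coefficients more than by their size. By size alone, 787 genes had a coefficient lower than that of EEF1A1 and 577 lower than that of EEF2. Among the 100 genes with the smallest implied SE, whose median coefficient was 0.12, the coefficient divided by its SE placed ACTG1, encoding gamma-actin, lowest, EEF1A1 next, EEF2 at position 3 and EEF1G at position 11. Between EEF2 and EEF1G stood 7 ribosomal protein genes, RPL15 and RPS3 at their head. The 63 genes named as cytosolic ribosomal proteins were taken by symbol and not by their start. Of those with a RefSeq start, 35 had a run of 5 or more bases at it and 16 had no such run. In the authors' deposited table the 63 had a median of -0.14, with 53 below 0. Of them 3 were called lower and none higher there, where 0.174% and 0.634% of all genes were. With the median subtracted 11 were called lower and none higher, against 0.507% and 0.0793% of all genes. These shares are not a like background, because the median implied SE was 0.09 for the ribosomal protein genes and 0.25 over all genes. Of the 100 genes with the smallest implied SE, which include ribosomal protein genes, 5 were called lower and 18 higher as deposited. With the median subtracted these counts were 15 and 4. The difference was not tested. Since each gene has 1 coefficient, the likeness of genes over samples could not be measured.

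A further list held TOP mRNAs of initiation factors and other proteins, with FAU, which is also counted among the ribosomal protein genes above. Of 13 looked up, 6 were measured, from -0.24 to 0.14, with a median of -0.05 and 4 below 0, and none was called in the authors' deposited table. EIF3E, a subunit of initiation factor eIF3, had -0.24 ± 0.09 in the authors' deposited table (adjusted p = 0.19). With the median subtracted from the authors' deposited table, EIF3E passed as lower (adjusted p = 0.022). EIF2S3, the gamma subunit of eIF2, had -0.23 ± 0.18, and FAU, which encodes a ubiquitin-like protein fused to a ribosomal protein, had 0.14 ± 0.18. NPM1, the nucleolar chaperone nucleophosmin, had 0.04 ± 0.06 in the authors' deposited table (adjusted p = 0.868). Its precision is close to that of EEF2, and their intervals, -0.07 to 0.15 and -0.38 to -0.19, do not overlap. The starts of NPM1, EIF4B (a helicase cofactor, coefficient -0.07 ± 0.11) and, for contrast, the paralog HNRNPA2B1 are shown with the same capitals. NPM1 and EIF4B were picked after their values were seen, and their coefficients are nearer 0 than those of EEF1A1 and EEF2. The starts of EIF3E and EIF2S3, with lower coefficients, are not shown. Nothing is therefore read from NPM1 and EIF4B about how the start goes with the coefficient. The interval of EIF4B, -0.28 to 0.15, still reaches those of EEF1A1 and EEF2. NPM1 has a further annotated start, in the window chr5:171387106-171387135 on the plus strand, with no run at the start itself.
NPM1, chr5:171387839-171387868, plus strand: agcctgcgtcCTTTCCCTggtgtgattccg
EIF4B, chr12:53006446-53006475, plus strand: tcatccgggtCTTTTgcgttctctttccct
HNRNPA2B1, chr7:26200727-26200756, minus strand: ctctagcggcagtagcagcagcgccgggtc

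Of the close relatives of the members 9 were measured, with a median of 0.04, and 4 were below 0. HNRNPA2B1, a relative of HNRNPA1, was called higher, with 0.25 ± 0.07 in the authors' deposited table (adjusted p = 0.0276) and an adjusted p of 0.466 after the median was subtracted. It was the only one of the 9 that was called. HNRNPAB had 0.30 ± 0.10 and SET, a histone chaperone related to NAP1L1, 0.22 ± 0.14 in the authors' deposited table, neither of them called. PABPC4, which resembles PABPC1, had 0.04 ± 0.20, nearly the coefficient of PABPC1.

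**Figure D3:**
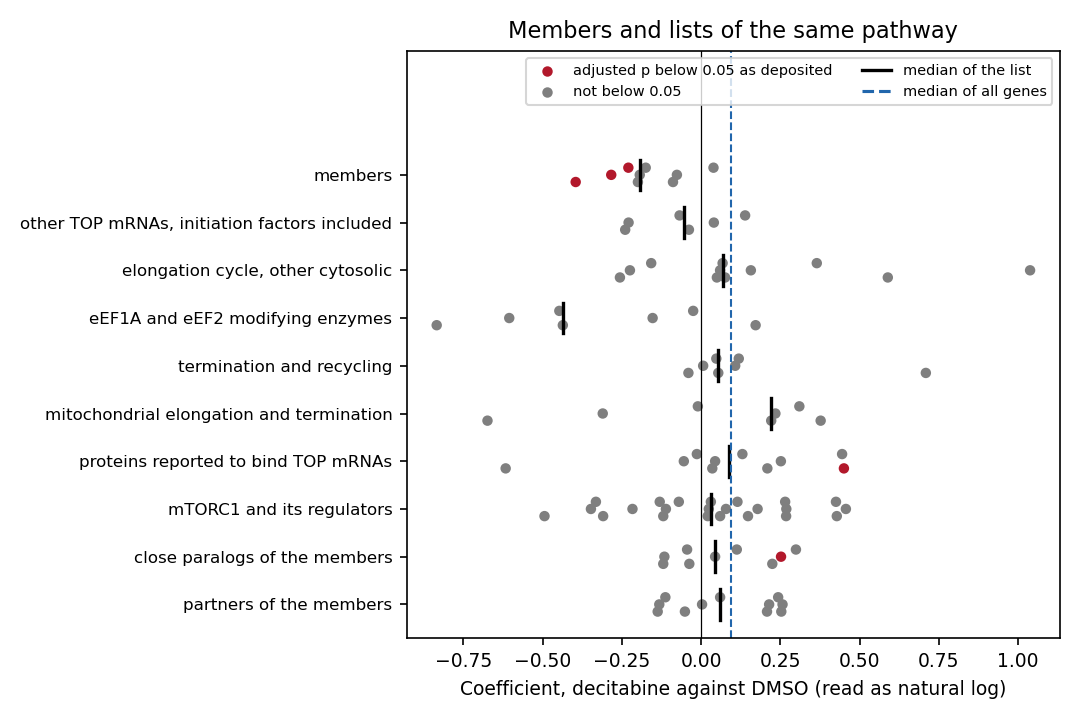
Coefficients (decitabine against DMSO, read as natural log, horizontal axis) of the members and of 9 lists from the same pathway, 1 point per measured gene, red where the adjusted p was below 0.05 as deposited, with a bar at each list's median. The members' bar is at -0.19, and of the other lists the bars of the modifying enzymes and of the other TOP mRNAs are the ones below 0.

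The other proteins of the elongation cycle were not called in either direction. For 11 of 16 cytosolic factors outside the TOP group the median was 0.07, and 3 were below 0. In the authors' deposited table, SECISBP2 and EEFSEC, which decode UGA as selenocysteine, had 1.04 ± 0.39 (adjusted p = 0.221) and 0.59 ± 0.29 (adjusted p = 0.454), and EEF1E1, a scaffold of the multi-synthetase complex with a domain like that of eEF1G, had 0.36 ± 0.21. The enzymes that modify eEF1A and eEF2 had the lowest median of any list, -0.44 for 7 of 17, and the widest errors. DPH1, DPH5 and DPH6, of the pathway that makes diphthamide on eEF2, had -0.83 ± 0.54, -0.45 ± 0.34 and -0.61 ± 0.48 in the authors' deposited table. All 5 measured DPH genes were below 0, and all 5 of their intervals include 0. The 7 termination and recycling factors had a median of 0.05, and DENR had 0.71 ± 0.26 in the authors' deposited table (adjusted p = 0.211). The 7 mitochondrial counterparts had a median of 0.22, with TUFM, the mitochondrial equivalent of eEF1A, at 0.31 ± 0.10 in the authors' deposited table (adjusted p = 0.151). The TUFM and EEF1A1 intervals, 0.11 to 0.51 and -0.29 to -0.17, do not overlap.

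Regulators of TOP mRNAs were measured as well. LARP1 was higher, with 0.45 ± 0.11 in the authors' deposited table (adjusted p = 0.0202), about 1.57 times the DMSO level as a natural log, and its adjusted p after subtraction of the median was 0.172. It was the only one called of 10 proteins reported to bind TOP mRNAs, whose median was 0.09. In the authors' deposited table, LARP4 had 0.44 ± 0.15 (adjusted p = 0.131), CNBP 0.25 ± 0.12 (adjusted p = 0.421) and LARP1B, a paralog of LARP1, -0.62 ± 0.31 (adjusted p = 0.466). Of 33 genes of mTORC1 and its regulators, 23 were measured, with a median of 0.03, and none was called. In the authors' deposited table, MTOR, the kinase itself, had 0.27 ± 0.16 (adjusted p = 0.595) and RPS6KB1, a kinase it activates, 0.43 ± 0.27 (adjusted p = 0.6), while EIF4E, the cap-binding protein, had 0.27 ± 0.16. These values describe translation efficiency of the regulators' own mRNAs, not their activity. Binding partners of the members, 11 of 17 measured, had a median of 0.06 and no call. Of them, in the authors' deposited table, HNRNPC had 0.26 ± 0.09 (adjusted p = 0.191) and the lamin LMNB1, an intermediate filament protein like VIM, 0.21 ± 0.10 (adjusted p = 0.402).

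The letters at the annotated start were also set beside the coefficients of all measured genes. Among the measured genes with a RefSeq start, 410 had a run of 5 or more bases at it. Where a gene had several annotated starts, the longest run was taken. The 5 members among them had a median of -0.20 and the 35 ribosomal protein genes -0.14. The other 370 had a median of 0.05, with 41.4% below 0, against 0.10 and 34.0% for the 4857 genes without such a run outside both groups. Among those other genes the median was 0.054 for runs of 5 to 7 bases and 0.049 for runs of 8 or more. The 16 ribosomal protein genes without a run at the annotated start had a median of -0.13. This comparison was made after the sequences were seen and was not tested.

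**Figure D4:**
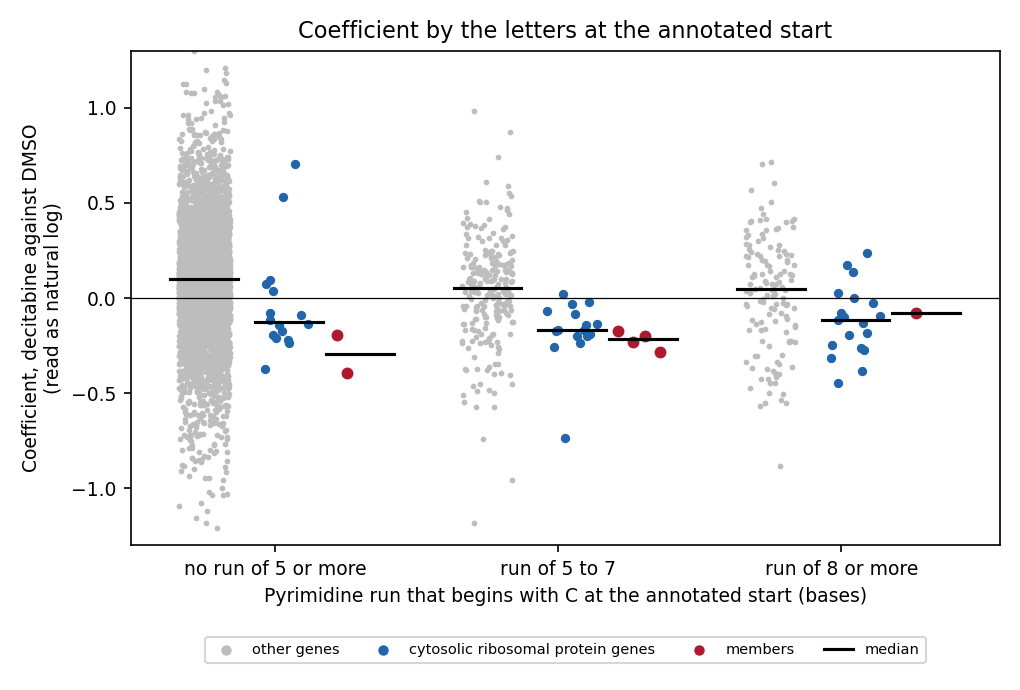
Coefficient (decitabine against DMSO, read as natural log, vertical axis) by the length of the pyrimidine run that begins with C at the annotated start, for other genes (grey), ribosomal protein genes (blue) and members (red), with a bar at each median; 14 genes beyond ±1.3 are not drawn. Blue and red bars lie below 0 in all 3 classes, and the grey bars between 0.05 and 0.10.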

How the data were processed

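The submitters' processing notes list hg38, Bowtie2, SAMtools 1.11 and UMI-tools 1.1.1; no source used here states the role of each tool, the model program, its count filter or its library scaling. The deposited table holds 1 transcript per gene with a coefficient, taken here as a natural log, and a two-sided p-value, an adjusted p-value and a q-value, per the file headers. A Benjamini-Hochberg adjustment over all 6309 genes gave the deposited adjusted p-values again. No count per library was used, so the planned count test did not apply and the deposited calls were used.

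The implied SE is the coefficient divided by the z of its p-value, and 95% intervals use it; they hold no error that the authors' model left out. For centring, the median of all coefficients was subtracted and p-values were recomputed and adjusted over all genes (Python 3.11.15, scipy 1.17.1). The implied SE, the adjustment and the search for runs were tried on simulated data, but the centring was not. Pseudogenes were counted by symbol, and starts were matched by symbol or older symbol. The members and the 13 lists were chosen with earlier results of these data known. Named genes are the members, each list's called genes and up to 3 others with the smallest p, and the most precise genes below EEF2; PABPC4, NPM1, EIF4B, RPL15 and RPS3 were added after their values were seen.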

Additional observations from a re-analysis of the deposited data

How the results depend on the processing

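The 3 member calls became 2 at an adjusted p below 0.01 and with the Benjamini-Yekutieli adjustment, where VIM no longer passed, and 4 with EEF1G after centring on the median or on the precision-weighted mean. From the authors' deposited table the adjusted p was 0.0276 and 0.258 for VIM, and 0.00527 and 0.00682 for EEF1G, in these orders. At 0.1, with the authors' q-value, and without the 25% least precise genes they stayed at 3. PABPC1 changed sign after both centrings, to -0.0559 and -0.0506. Calls over all genes were 51 (11 lower, 40 higher) as deposited, 19 (6 and 13) at 0.01, 86 (20 and 66) at 0.1 and 18 (6 and 12) with Benjamini-Yekutieli; centring on the median gave 32 lower and 5 higher, and on the weighted mean 31 and 6, which follows from the shift of zero. Read as log2, the fold of EEF1A1 moved past its interval, to 0.853. A run within 5 bases of the start, or one with 6 pyrimidines after the C, was held by 5 of 7 members and by 29.3% and 18.8% of measured genes, in that order, and one within 20 bases by 7 of 7 and by 56.1%. No paired analysis was possible because the table has no column per library; for the same reason no replicate was left out. Depth is unknown, and EEF1B2 is the member whose error limits it most.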

Other observations

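Called genes with a run of 5 or more bases at the annotated start were not all lower. Outside the ribosomal proteins and the members, 370 measured genes had such a run, and 3 of them were called, 2 higher and 1 lower. Over all 6309 genes 0.808% were called, 0.634% as higher and 0.174% as lower. Nothing is read from these 3 about genes with a run, and they are named after their values were seen. PFDN5, a subunit of the prefoldin chaperone, had -0.57 ± 0.15 in the authors' deposited table (adjusted p = 0.0276). In the authors' deposited table, HSP90AB1, the constitutive HSP90, had 0.21 ± 0.05 (adjusted p = 0.00262), and EBNA1BP2, a nucleolar ribosome biogenesis factor, 0.61 ± 0.16 (adjusted p = 0.0309). Their runs were 6, 5 and 8 bases long.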
